A study of Mus musculus with 18 samples.

Results

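The results below concern 8 mouse genes of pigment cells and melanin, Tyr, Tyrp1, Dct, Pmel, Mlana, Mitf, Slc45a2 and Rpe65, which were found by gene name among the 34385 genes of one deposited table and the 34396 of another. All 8 were found in both. They were selected on their measured values in these same libraries, in results already known, so that their levels and fold changes are given as a description. The study used retinas of ICR mice, an outbred albino stock, which were electroporated at postnatal day 0.5 with a plasmid of interest together with a plasmid for EGFP, and which were then kept as explants for 3 days. EGFP-positive cells were sorted by FACS, and cDNA was made from 1 ng of their total RNA. In the knockdown table, cells with an Nmnat1 knockdown plasmid and cells with an Nmnat2 knockdown plasmid were set against cells with a scramble plasmid. In the overexpression table, cells that overexpressed Nmnat1 and cells that overexpressed Nmnat2 were set against cells that carried an empty vector. There were 6 groups of 3 libraries, and the cells of all 18 carried the EGFP plasmid. The labels give neither the promoters of the plasmids nor the hairpin sequences, and they do not say whether the 3 libraries of a group came from separate animals or cultures, so that p-values measure the spread between these libraries. Nmnat1 and Nmnat2 encode enzymes that make NAD.

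Melanin is made in melanosomes, organelles of melanocytes and of the retinal pigment epithelium, the pigmented cell layer behind the neural retina. Tyrosinase (Tyr) catalyses the rate-limiting step, dopachrome tautomerase (Dct) and Tyrp1 act on later intermediates, Pmel forms the fibrils on which melanin is laid down, and Mlana is a melanosome membrane protein that binds Pmel. Slc45a2 is a melanosomal transporter, Mitf is the transcription factor that governs pigment cell genes, and Rpe65 is the retinoid isomerase of the visual cycle in the pigment epithelium. ICR mice lack melanin because of a Tyr mutation, and the pigment epithelium lies outside the neural retina, so that these genes measure the RNA of a programme that is not the main one of the cells sorted here.

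Mitf is known to bind a sequence called the M-box in the promoters of Tyr, Tyrp1 and Dct, and Otx2, which is abundant in these cells, is known to bind a bicoid-type motif. For that reason the promoter windows of those 3 genes are shown, with Rpe65 for comparison. They run from 250 bases before to 50 bases after the annotated start and are RefSeq sequences of GRCm38.p6, the C57BL/6J reference and not the ICR stock. Capitals mark TCATGTG, the core of the M-box, and TAATCC, the core of the Otx motif, each on either strand (CACATGA and GGATTA are the opposite strand). The windows are chr7:87493463-87493762 on the minus strand for Tyr, chr4:80833963-80834262 on the plus strand for Tyrp1, chr14:118052197-118052496 on the minus strand for Dct and chr3:159598931-159599230 on the plus strand for Rpe65.
Tyr: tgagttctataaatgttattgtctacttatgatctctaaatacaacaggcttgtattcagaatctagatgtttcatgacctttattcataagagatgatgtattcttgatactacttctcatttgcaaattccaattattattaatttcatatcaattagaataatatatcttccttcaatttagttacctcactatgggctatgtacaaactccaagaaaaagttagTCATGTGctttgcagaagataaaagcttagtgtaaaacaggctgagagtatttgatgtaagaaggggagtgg
Tyrp1: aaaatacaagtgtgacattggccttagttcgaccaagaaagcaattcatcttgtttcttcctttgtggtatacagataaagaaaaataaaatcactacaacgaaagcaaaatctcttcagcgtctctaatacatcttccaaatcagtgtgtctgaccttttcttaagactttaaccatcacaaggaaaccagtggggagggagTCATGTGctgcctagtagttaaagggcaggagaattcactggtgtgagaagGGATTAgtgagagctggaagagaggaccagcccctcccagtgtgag
Dct: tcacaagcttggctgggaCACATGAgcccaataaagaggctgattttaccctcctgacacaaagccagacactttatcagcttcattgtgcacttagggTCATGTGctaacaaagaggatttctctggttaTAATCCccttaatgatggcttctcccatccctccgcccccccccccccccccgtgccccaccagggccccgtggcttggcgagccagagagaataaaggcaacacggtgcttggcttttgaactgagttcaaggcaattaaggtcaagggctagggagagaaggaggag
Rpe65: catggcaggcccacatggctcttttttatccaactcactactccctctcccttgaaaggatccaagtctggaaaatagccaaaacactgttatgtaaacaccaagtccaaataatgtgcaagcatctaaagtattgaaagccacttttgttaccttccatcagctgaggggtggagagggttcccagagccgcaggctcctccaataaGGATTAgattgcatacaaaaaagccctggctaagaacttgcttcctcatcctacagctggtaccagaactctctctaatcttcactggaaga
With the annotated start as position 0, the M-box core began at -22 in Tyr, at -47 in Tyrp1 and at -151 in Dct, and Dct held another on the opposite strand at -232. These 3 windows shared the 10-letter run GTCATGTGCT, which 0.186% of the 32851 RefSeq windows of 300 bases held on either strand. The run was taken from these same 3 windows as the longest they share around the core, so that nothing is read from its rarity. TCATGTG was held by 3.77% of all windows. The shorter E-box CATGTG, which lies inside TCATGTG, was held by 14.2%, and in Rpe65 it stood on the opposite strand at -239 outside any M-box core. TAATCC was held by 7.06% of all windows, and it stood at -119 in Dct and on the opposite strand at 4 in Tyrp1 and at -42 in Rpe65. Mitf had 3 windows, of which 1 held TAATCC and none held TCATGTG. The 3 other genes had no window in the table used, so that 5 of 8 were matched. A match is a match of letters and not a measured binding site.

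**Figure D1:**
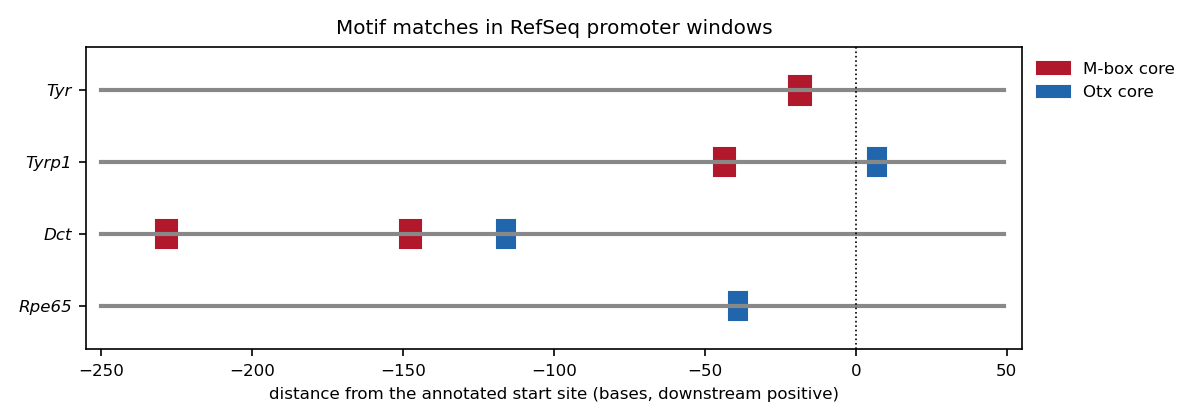
Positions of motif matches in the RefSeq promoter windows of Tyr, Tyrp1, Dct and Rpe65. The x axis is the distance from the annotated start in bases; red blocks are the M-box core TCATGTG and blue blocks the Otx core TAATCC, on either strand. Tyr, Tyrp1 and Dct hold red blocks and Rpe65 does not.

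The deposited values were rescaled to parts per 1000000 (ppm) of the sum of their column, a level per length of transcript. For a gene of 1 kb, a level of 1 ppm corresponded to between 12.6 and 20.6 reads in the knockdown table and to between 11.3 and 16.6 reads in the overexpression table. The targeted genes were checked. Nmnat1 was at 7.37, 8.54 and 7.49 ppm in Nmnat1 knockdown libraries and at 19.1, 20.9 and 17.0 ppm in scramble libraries, whereas Nmnat2, at 1.27, 1.01 and 0.503 ppm in Nmnat2 knockdown libraries, overlapped the 6.22, 0.624 and 2.03 ppm of scramble. Nmnat1 was at 14797 to 27832 ppm in Nmnat1 overexpression libraries and at 18.7 to 22.6 ppm in empty vector libraries, and Nmnat2 at 20911 to 22818 ppm in Nmnat2 overexpression libraries and at 1.14 to 2.71 ppm in empty vector libraries. Library N2_2 of Nmnat2 knockdown stood apart, at 128.7 on the first principal component of its table, against -31.2 to -5.8 for the other 8. On that of the overexpression table, the libraries numbered 1 lay at 33.9 for Nmnat1 overexpression, 91.4 for Nmnat2 overexpression and 24.5 for empty vector, and the other 6 between -50.0 and -4.1. Numbers of genes called in the fits below are given with and without these libraries. Ranges, sums and means include them unless stated. The titles of 1 library in each Nmnat2 group name Nmnat3, while their other labels name Nmnat2, which was followed.

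Dct was the most abundant of the 8 in every library. It made up between 56.6% and 75.2% of their summed level in the knockdown table and between 69.1% and 85.2% in the overexpression table. Its mean exceeded that of 86.0% of genes in scramble cells and of 88.5% in empty vector cells. The mean of Tyrp1 came next and exceeded that of 69.2% and 68.9% of genes. Tyr, the enzyme that acts before both, lay lower. The mean of Dct was 8.95 to 28.6 times that of Tyr over the 6 groups and 36.9 to 71.4 times that of Pmel. Tyr, Mitf and Rpe65 lay between 0.0420 and 5.29 ppm in all libraries. Their order differed between groups, and their ranges over the libraries overlapped. Fewer cells that express a gene and less of its RNA per cell cannot be told apart in such bulk samples. The cDNA and library kits keep no record of the strand, which leaves reads of antisense or overlapping genes mixed with those of the gene named.

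Pmel, Mlana and Slc45a2 were at or near the limit of detection. Pmel reached 1 ppm in 2 of 9 libraries of the knockdown table and in 3 of 9 libraries of the overexpression table, Mlana in 1 of each, and Slc45a2 in none. Rpe65 reached it in 4 and 3 libraries and Mitf in 6 and 5, so that these were also near the limit in some libraries. Pmel was at 2.39, 0.934 and 0.103 ppm in Nmnat1 knockdown libraries, at 0.965, 0.278 and 0.213 ppm in Nmnat2 knockdown libraries, and at 0.887, 0.802 and 1.40 ppm in scramble libraries. These groups overlapped, and the spread within Nmnat1 knockdown was wider than any difference between means. Mlana was at 0.674, 0.683 and 1.66 ppm in Nmnat1 knockdown libraries, at 0.182, 0 and 0.632 ppm in Nmnat2 knockdown libraries, and at 0, 0.676 and 0.717 ppm in scramble libraries. It was listed at 0 in 1 library of each of Nmnat1 overexpression, Nmnat2 overexpression and empty vector, and its highest level in that table was 1.83 ppm, in N2_1. Slc45a2 has 1 annotated transcript, so that its values could be read as whole reads. They came to 0, 3 and 15 reads in Nmnat1 knockdown libraries, to 1, 17 and 4 in Nmnat2 knockdown libraries and to 2, 0 and 2 in scramble libraries, and to 0 to 4 reads in every library of the overexpression table. The 17 reads were in N2_2, the library that stood apart, and no difference between groups was detectable at this depth.

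**Figure D2:**
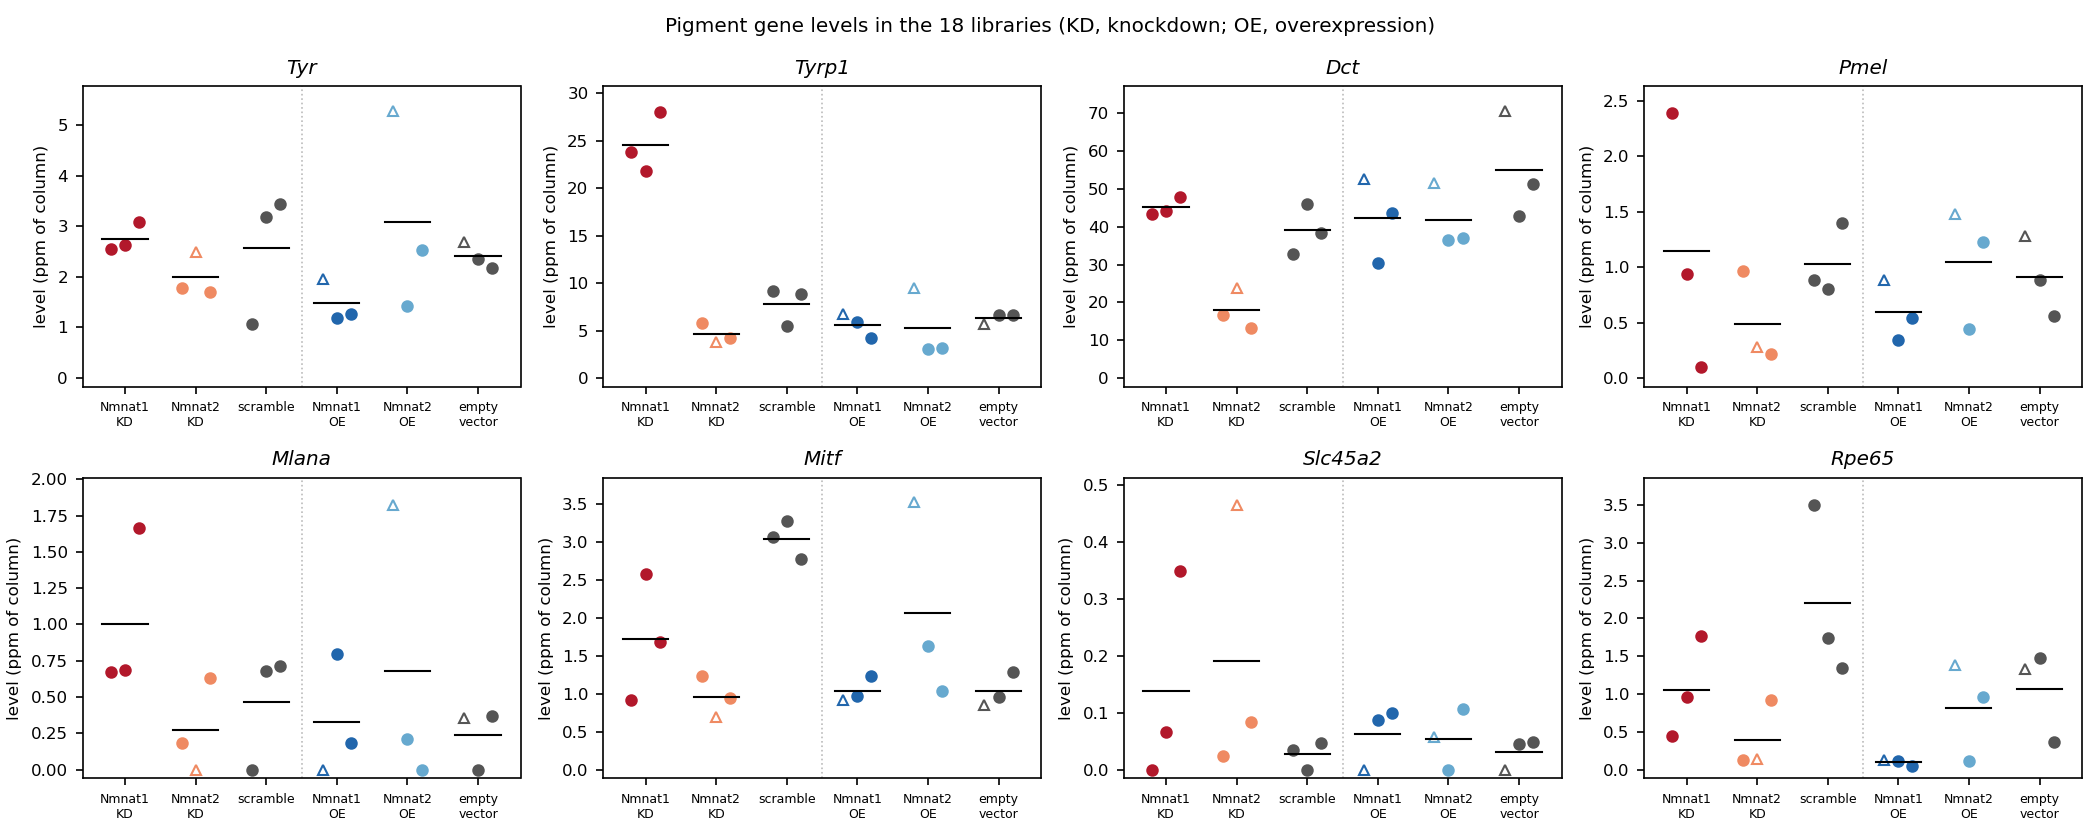
Level in ppm of the column (y axis, linear, its own range in each panel) of the 8 genes in each of the 18 libraries by group (x axis). Points are libraries, horizontal bars are group means, and open triangles mark N2_2 of Nmnat2 knockdown and the libraries numbered 1 of the overexpression table. Tyrp1 stands at 21.8 to 28.1 ppm in Nmnat1 knockdown and at 5.48 to 9.15 ppm in scramble, and Dct at 13.3 to 23.7 ppm in Nmnat2 knockdown and at 32.7 to 46.0 ppm in scramble.

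In Nmnat1 knockdown cells Tyrp1 was about 3 times its scramble level, while Dct and Tyr were close to theirs and Mitf was lower. Tyrp1 (chr4:80834123-80851719, plus strand, in GENCODE M21 on GRCm38, as for the other genes) was at 23.9, 21.8 and 28.1 ppm in Nmnat1 knockdown libraries and at 9.15, 5.48 and 8.91 ppm in scramble libraries. Every Nmnat1 knockdown library was above every scramble library, and the ratio of the means, 24.6 ± 3.18 and 7.85 ± 2.06 ppm (SD, n = 3 each), was 3.13. In the fit of limma over all genes kept (those with at least 1 ppm in at least 3 libraries), the log2 fold change of Tyrp1 on the log2(ppm + 1) scale came to 1.55 ± 0.30 (SE, adjusted p = 0.0996). With N2_2 left out, a library of the other arm that enters the same estimate of the spread, the fold change was 1.55 ± 0.25 and the adjusted p 0.00534, so that this 1 library decided whether Tyrp1 passed the threshold of 0.05. Tyrp1 also passed with weighted libraries (adjusted p = 0.0136) and when only the groups compared were fitted (adjusted p = 0.0104).

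Dct (chr14:118012790-118052244, minus strand) was at 43.4, 44.3 and 47.9 ppm in Nmnat1 knockdown libraries and at 32.7, 46.0 and 38.3 ppm in scramble libraries. The groups overlapped, and the log2 fold change came to 0.22 ± 0.25 (adjusted p = 0.792 by limma). Tyr (chr7:87424771-87493512, minus strand) was at 2.56, 2.62 and 3.08 ppm in Nmnat1 knockdown libraries and at 1.06, 3.19 and 3.44 ppm in scramble libraries, again with overlap (0.15 ± 0.39, adjusted p = 0.918). The level of Tyrp1 over that of Dct was 0.550, 0.493 and 0.586 in Nmnat1 knockdown libraries and 0.280, 0.119 and 0.233 in scramble libraries, and these ranges did not overlap. Of this pair of enzymes of the same pathway, Tyrp1 had groups without overlap and Dct had not, and the difference between their fold changes was not tested.

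Mitf (chr6:97807052-98021349, plus strand) was at 0.923, 2.58 and 1.68 ppm in Nmnat1 knockdown libraries and at 3.06, 3.28 and 2.78 ppm in scramble libraries. The groups did not overlap, and the log2 fold change was -0.61 ± 0.36 (adjusted p = 0.590 by limma). Rpe65 (chr3:159599175-159625321, plus strand) was at 0.450, 0.962 and 1.76 ppm in Nmnat1 knockdown libraries and at 3.51, 1.75 and 1.35 ppm in scramble libraries. Its groups overlapped through the highest Nmnat1 knockdown library (-0.63 ± 0.43, adjusted p = 0.646). Of the 8 genes 5 passed the filter on low values in this table, Rpe65 mainly through its scramble libraries, and the other 3 were not tested. By limma 0 of these 5 were called, and 1, Tyrp1, had an unadjusted p under 0.05. Over all 22233 genes kept, 0.144% were called, 10.5% had an unadjusted p under 0.05, and 24.8% had groups that did not overlap, as had 2 of the 5. With N2_2 left out, 8.43% of all genes were called and 1 of the 5, Tyrp1. The choice of the 8 genes was made with these contrasts known, so that nothing is read from these counts.

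In Nmnat2 knockdown cells Dct was at 0.459 times its scramble mean, Mitf at 0.314 times and Rpe65 at 0.179 times, while the groups overlapped for Tyr and Tyrp1. Dct was at 16.6, 23.7 and 13.3 ppm in Nmnat2 knockdown libraries and at 32.7, 46.0 and 38.3 ppm in scramble libraries. Every Nmnat2 knockdown library was below every scramble library. The means were 17.9 ± 5.33 and 39.0 ± 6.68 ppm (SD, n = 3 each), and the log2 fold change came to -1.11 ± 0.25 (adjusted p = 0.0883 by limma). Without N2_2 it was -1.32 ± 0.18 with an adjusted p of 0.00108, so that this library, the highest of its group for Dct, decided whether Dct passed. With weighted libraries the adjusted p was 0.00039, and with median-of-ratios scaling the fold change was -0.90 and the adjusted p 0.162.

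Tyrp1 was at 5.80, 3.78 and 4.20 ppm in Nmnat2 knockdown libraries and at 9.15, 5.48 and 8.91 ppm in scramble libraries. The groups overlapped at 1 library, and the log2 fold change was -0.65 ± 0.30 (adjusted p = 0.303 by limma). The same scramble libraries served both knockdowns, so that Tyrp1 and Dct are set side by side only as values: 24.6 and 45.2 ppm on average in Nmnat1 knockdown, 4.59 and 17.9 ppm in Nmnat2 knockdown, and 7.85 and 39.0 ppm in scramble. The level of Tyrp1 over that of Dct was 0.350, 0.159 and 0.315 in Nmnat2 knockdown libraries, which overlapped the 0.280, 0.119 and 0.233 of scramble libraries. Tyr was at 1.79, 2.50 and 1.71 ppm in Nmnat2 knockdown libraries, within the range of 1.06 to 3.44 ppm in scramble libraries (-0.18 ± 0.39, adjusted p = 0.862).

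Mitf was at 1.23, 0.695 and 0.938 ppm in Nmnat2 knockdown libraries and at 3.06, 3.28 and 2.78 ppm in scramble libraries, with no overlap, and its log2 fold change was -1.05 ± 0.36 (adjusted p = 0.185 by limma). Rpe65 was at 0.121, 0.139 and 0.922 ppm in Nmnat2 knockdown libraries and at 3.51, 1.75 and 1.35 ppm in scramble libraries, also with no overlap (-1.19 ± 0.43, adjusted p = 0.205). No Nmnat2 knockdown library reached 1 ppm for Rpe65, which passed the filter mainly through the scramble libraries, where it was high. The log2(ppm + 1) scale understates the differences of genes at such low levels. Of the 5 genes that passed the filter, 0 were called by limma, and 3 (Dct, Mitf and Rpe65, each lower) had an unadjusted p under 0.05. The background was 0.436% of 22233 genes called, 16.8% with an unadjusted p under 0.05, and 17.2% lower with groups that did not overlap, as were 3 of the 5. Nothing is read from these shares either. With N2_2 left out, 15.5% of all genes were called and 1 of the 5, Dct. The median log2 fold change of the 5 was -1.05, and that of all genes was -0.23. Without N2_2 these medians were -0.96 and -0.14. With median-of-ratios scaling these medians were -0.90 and -0.06.

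In Nmnat1 overexpression cells Tyr was at 0.613 times and Rpe65 at 0.0888 times the empty vector mean without overlap, and the groups overlapped for the other 6 genes. Among these, Pmel was at 0.650 times, Dct at 0.768 times, Tyrp1 at 0.885 times and Mitf at 1.01 times the empty vector mean, and Mlana and Slc45a2 were too low to compare. Rpe65 too was near the limit of detection, at means of 0.0943 ppm in Nmnat1 overexpression and 1.062 ppm in empty vector. Its ratio is therefore given as a value only. Tyr was at 1.96, 1.20 and 1.28 ppm in Nmnat1 overexpression libraries and at 2.69, 2.36 and 2.18 ppm in empty vector libraries. Every Nmnat1 overexpression library was below every empty vector library, and the log2 fold change was -0.47 ± 0.38 (adjusted p = 0.800 by limma). Rpe65 was at 0.130, 0.111 and 0.0420 ppm in Nmnat1 overexpression libraries and at 1.34, 1.48 and 0.371 ppm in empty vector libraries. These did not overlap either (-0.87 ± 0.40, adjusted p = 0.541), but the lowest empty vector library stood well below the other 2, and Rpe65 passed the filter only through the 2 other groups of the table. Dct was at 52.6, 30.3 and 43.7 ppm in Nmnat1 overexpression libraries and at 70.6, 42.9 and 51.3 ppm in empty vector libraries. In both groups its highest library was the one numbered 1, the ranges overlapped, and the log2 fold change was -0.38 ± 0.24 (adjusted p = 0.703).

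Tyrp1 was at 6.75, 5.88 and 4.25 ppm in Nmnat1 overexpression libraries and at 5.74, 6.65 and 6.70 ppm in empty vector libraries, with overlap (-0.17 ± 0.36, adjusted p = 0.957 by limma). Mitf was at 0.919, 0.972 and 1.23 ppm in Nmnat1 overexpression libraries and at 0.849, 0.959 and 1.29 ppm in empty vector libraries (0.01 ± 0.36, adjusted p = 0.997). Its means differed by less than the spread between libraries. Pmel was at 0.887, 0.348 and 0.539 ppm in Nmnat1 overexpression libraries and at 1.28, 0.888 and 0.563 ppm in empty vector libraries (-0.26 ± 0.36, adjusted p = 0.913), again with overlap. The filter on low values was passed by 6 of the 8 genes here, and by limma 0 were called and 0 had an unadjusted p under 0.05. Over 20725 genes kept, 0.121% were called, 9.57% had an unadjusted p under 0.05, and 17.8% had groups that did not overlap, as had 2 of the 6. Without the libraries numbered 1, 4 of the 8 passed the filter, 0 were called and 0 had an unadjusted p under 0.05, against 11.1% of all genes called.

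In Nmnat2 overexpression cells all 6 genes that passed the filter overlapped with the empty vector, and library N2_1 lay above the other 2 of its group for each of Tyr, Tyrp1, Dct, Pmel, Mlana, Mitf and Rpe65. Tyr was at 5.29, 1.42 and 2.53 ppm in Nmnat2 overexpression libraries and at 2.69, 2.36 and 2.18 ppm in empty vector libraries (log2 fold change 0.15 ± 0.38, adjusted p = 0.942 by limma). The direction turned without N2_1, to -0.22. Tyrp1 was at 9.47, 3.11 and 3.18 ppm in Nmnat2 overexpression libraries and at 5.74, 6.65 and 6.70 ppm in empty vector libraries (-0.38 ± 0.36, adjusted p = 0.814). Once the libraries numbered 1 were left out the groups no longer overlapped, and the fold change of Tyrp1 was -0.89 ± 0.24 with an adjusted p of 0.0650. Dct was at 51.6, 36.5 and 37.1 ppm in Nmnat2 overexpression libraries and at 70.6, 42.9 and 51.3 ppm in empty vector libraries (-0.38 ± 0.24, adjusted p = 0.660).

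Mitf was at 3.53, 1.64 and 1.03 ppm in Nmnat2 overexpression libraries and at 0.849, 0.959 and 1.29 ppm in empty vector libraries (0.52 ± 0.36, adjusted p = 0.716 by limma), and its highest value was again that of N2_1. Leaving out the libraries numbered 1 gave 0.13 ± 0.36. Rpe65 was at 1.38, 0.112 and 0.957 ppm in Nmnat2 overexpression libraries and at 1.34, 1.48 and 0.371 ppm in empty vector libraries (-0.21 ± 0.40, adjusted p = 0.918). Pmel was at 1.48, 0.440 and 1.22 ppm in Nmnat2 overexpression libraries and at 1.28, 0.888 and 0.563 ppm in empty vector libraries (0.08 ± 0.36, adjusted p = 0.968). Neither differed by more than the spread between libraries. By limma 0 of the 6 were called, 0 had an unadjusted p under 0.05 and 0 had groups that did not overlap, beside 0.55% of 20725 genes called, 10.3% with an unadjusted p under 0.05 and 16.3% without overlap. Without the libraries numbered 1, 0 of 4 were called and 1, Tyrp1, had an unadjusted p under 0.05, against 8.18% of all genes called.

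**Figure D3:**
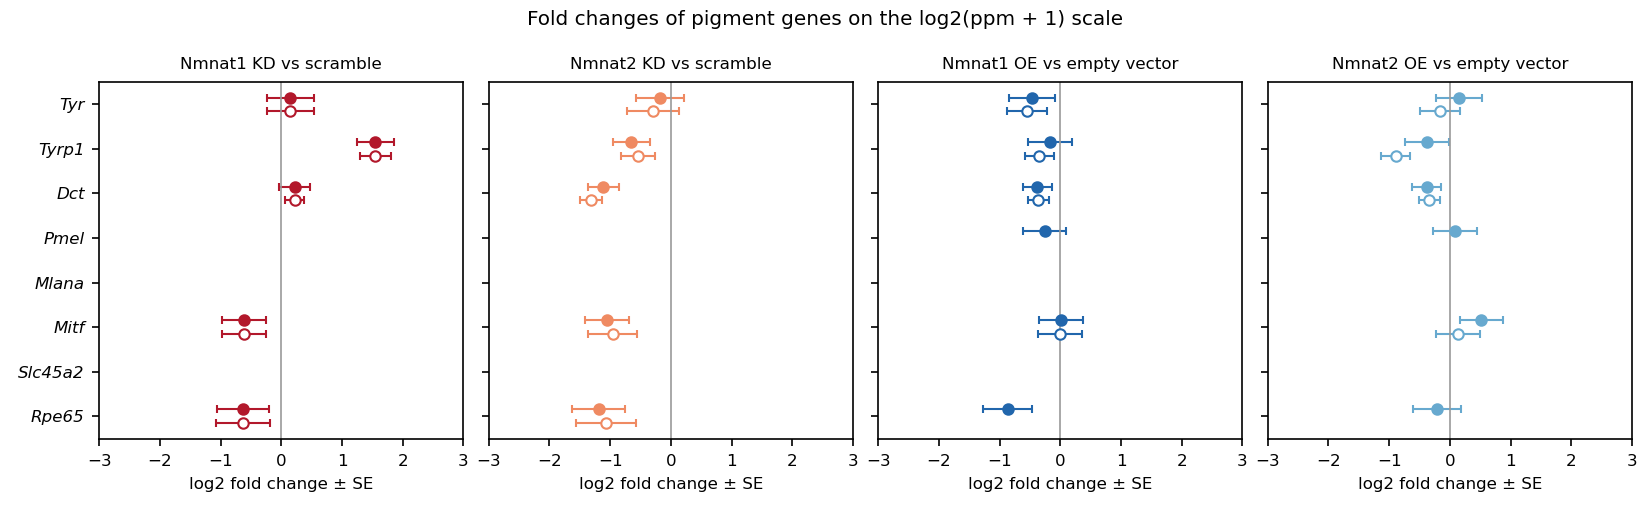
Log2 fold changes on the log2(ppm + 1) scale (x axis, bars are the SE from limma) of the 8 genes (y axis) in the 4 comparisons. Filled points use all libraries; open points leave out N2_2 in the knockdown table and the libraries numbered 1 in the overexpression table; genes without a point did not pass the filter on low values. Tyrp1 in Nmnat1 knockdown lies at 1.55 and Dct in Nmnat2 knockdown at -1.11, or at -1.32 without N2_2.

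The summed level of genes of rod photoreceptors, the cell type that most late-born retinal cells become, was ordered over the knockdown groups as the mean of Dct was, but its genes did not all go the same way. The sum of 5 rod genes (Nrl, Nr2e3, Crx, Rcvrn and Gnat1, all above 1 ppm in all 18 libraries) was 3003 to 3087 ppm in Nmnat1 knockdown, 1193 to 1533 ppm in Nmnat2 knockdown and 2090.4 to 2265 ppm in scramble libraries. Dct, at means of 45.2, 17.9 and 39.0 ppm in the same groups, was ranked alike, although its Nmnat1 knockdown and scramble libraries overlapped. Against scramble means, Nr2e3 was at 1.54 times, Nrl at 1.47 times and Crx at 1.30 times in Nmnat1 knockdown, while the phototransduction genes Rcvrn and Gnat1 were at 0.836 and 0.626 times, and of these 5 Gnat1 alone had groups that overlapped. In Nmnat2 knockdown all 5 had means below scramble, at 0.352 to 0.898 times, and Nr2e3 and Rcvrn had no overlap. The rod sum of the overexpression table was 1526 to 2369 ppm in Nmnat1 overexpression, 1530.4 to 1789 ppm in Nmnat2 overexpression and 2633 to 2793 ppm in empty vector libraries. Among empty vector libraries v1 had both the highest Dct level, 70.6 ppm, and the highest rod sum. Other libraries of that table broke this order. Library v3 had more Dct than v2 at a lower rod sum, and N1_1 of Nmnat1 overexpression, at a rod sum of 2369 ppm, had more Dct than either. The part of the rod genes in the Dct result was not tested. Tyrp1 was 3.13 times its scramble mean in Nmnat1 knockdown, where the rod sum averaged 3036 ppm beside 2152.5 ppm in scramble.

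**Figure D4:**
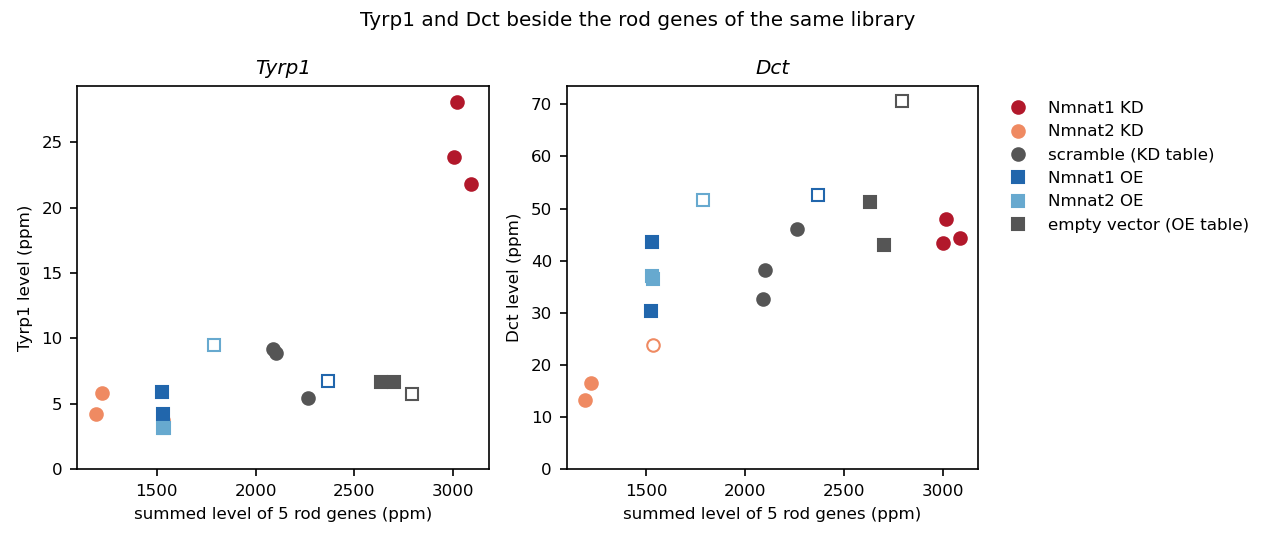
Level of Tyrp1 and of Dct (y axes, ppm) against the summed level of 5 rod genes (x axis, ppm) in the 18 libraries. Circles are the knockdown table and squares the overexpression table; open symbols mark the libraries that stood apart, and no line is fitted because the tables were normalized separately. Nmnat1 knockdown libraries lie at the right in both panels, and at the top for Tyrp1 only.

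Genes that mark melanocytes and the pigment epithelium ranged from under 1 ppm to the level of Dct and above. Of 10 melanocyte lineage genes, 3 (Sox10, Erbb3 and Foxd3, which mark neural crest cells) were under 1 ppm in all 18 libraries, and 2, Kit and Tfap2a, were at 1 ppm or more in all. Of 19 retinal pigment epithelium genes, 7 were at 1 ppm or more in all libraries. These included Rlbp1, a retinoid-binding protein that Müller glia also express, at 53.5 to 370.5 ppm, the opsin-like gene Rrh at 16.1 to 68.8 ppm, the retinol dehydrogenase genes Rdh10 and Rdh5 at 13.8 to 76.8 and 3.98 to 16.4 ppm, and the potassium channel gene Kcnj13 at 1.76 to 7.30 ppm. Clic6 and Cdh3 were under 1 ppm in all libraries, the chloride channel gene Best1 did not exceed 1.54 ppm and was listed at 0 in 1 library, and Ttr was listed at 0 in 5. The retinyl ester enzyme gene Lrat reached at most 2.01 ppm. The list summed to 241.5 to 261 ppm in Nmnat1 knockdown, 115 to 296 ppm in Nmnat2 knockdown and 365 to 413 ppm in scramble. The 115 ppm was that of N2_2, while N2_1 and N2_3 of Nmnat2 knockdown were at 295.8 and 281.5 ppm, above every Nmnat1 knockdown library. Mean sums were 252, 230.7 and 392.7 ppm in Nmnat1 knockdown, Nmnat2 knockdown and scramble. Of these, Rlbp1 alone made up 107.2, 127.1 and 245.2 ppm. The sums thus leaned on 1 gene, and the median log2 fold change of the kept genes was 0.08 in Nmnat1 knockdown. In Nmnat2 knockdown this median was -0.75, beside -0.23 over all genes, and 11 of the 13 kept genes had a negative value. Lower values there were thus not those of Rlbp1 alone. Without N2_2 the medians were -0.37 and -0.14. The part of this list in the results was not tested. Since some genes of each list were under 1 ppm in all libraries and others at 1 ppm or more in all, the 8 genes are called pigment genes here, not pigment cells.

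The 7 genes of microglia and macrophages summed to 19.9 to 25.6 ppm in Nmnat1 knockdown, 9.87 to 12.4 ppm in Nmnat2 knockdown and 8.95 to 17.97 ppm in scramble libraries. This sum was higher in Nmnat1 knockdown, but each of the 7 genes overlapped scramble on its own. Tyrobp averaged 8.295 ppm in Nmnat1 knockdown and 2.269 ppm in scramble, while Ctss went the other way, at 0.52 times its scramble mean. The 5 genes of progenitors and Müller glia were Hes1, Hes5, Sox2, Glul and Rlbp1. They summed to 272 to 295 ppm in Nmnat1 knockdown, 284 to 466 ppm in Nmnat2 knockdown and 565 to 583 ppm in scramble libraries. The 284 ppm was that of N2_2, while N2_1 and N2_3 of Nmnat2 knockdown were at 460 and 466 ppm. Each of the 5 genes was lower without overlap in Nmnat1 knockdown. In Nmnat2 knockdown Hes5 and Rlbp1 were lower without overlap, at 0.608 and 0.519 times their scramble means. Hes1, Glul and Sox2 overlapped scramble there, at 0.923, 1.08 and 1.46 times, so that the lower sum was not shared by all. Endothelial genes summed to 33.7 to 38.8, 15.9 to 72.3 and 55.1 to 65.7 ppm in Nmnat1 knockdown, Nmnat2 knockdown and scramble libraries. The 15.9 ppm was that of N2_2, while N2_1 and N2_3 were at 64.8 and 72.3 ppm. Connective tissue genes, including those of the choroid, summed to 13.2 to 26.1, 8.36 to 21.8 and 15.2 to 22.0 ppm in the same order of groups. Here the 21.8 ppm was that of N2_2, while N2_1 and N2_3 were at 10.4 and 8.36 ppm. Red blood cell, lens, cornea and astrocyte lists each stayed at or under 15.3 ppm in all libraries of the knockdown table. The part of any of these in the Tyrp1 and Dct results was not tested.

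The 4 lists of further genes, 64 in all, were described beside the 8: melanosome and melanin genes, melanocyte lineage genes, relatives of Mitf with factors of eye pigment fate, and retinal pigment epithelium genes. By limma, 0 of the 51 that passed the filter in the knockdown table were called in either arm, and 0 of 47 in either arm of the overexpression table. In Nmnat1 knockdown 0 were higher and 7 lower with an unadjusted p under 0.05, and in Nmnat2 knockdown 2 were higher and 13 lower. In Nmnat1 overexpression 6 were higher and 2 lower, and in Nmnat2 overexpression 3 were higher and 2 lower. The lists were chosen with results of these data known, and the counts stand beside the shares of all genes with an unadjusted p under 0.05, which were 10.5%, 16.8%, 9.57% and 10.3%.

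Among the 24 melanosome and melanin genes, which build, load and move the organelle, all passed the filter in the knockdown table. Their median log2 fold change was -0.15 in Nmnat1 knockdown and -0.47 in Nmnat2 knockdown, beside 0.00 and -0.23 over all genes. Without N2_2 the Nmnat2 knockdown median was -0.32, beside -0.14 over all genes. Gpr143, the receptor of the melanosome membrane that is mutated in ocular albinism, was at 2.57, 1.23 and 0.257 ppm in Nmnat1 knockdown libraries, at 0.863, 0.332 and 1.01 ppm in Nmnat2 knockdown libraries, and at 4.53, 5.12 and 4.10 ppm in scramble libraries. Both knockdowns lay below scramble in every library, at log2 fold changes of -1.37 ± 0.43 (adjusted p = 0.302) and -1.70 ± 0.43 (adjusted p = 0.108). Cd63, a tetraspanin of late endosomes and melanosomes that most cells express, was at 401, 348 and 390 ppm in Nmnat1 knockdown libraries, at 348, 468 and 342 ppm in Nmnat2 knockdown libraries, and at 574, 612 and 556 ppm in scramble libraries. Its groups did not overlap either (-0.61 ± 0.16, adjusted p = 0.202, and -0.60 ± 0.16, adjusted p = 0.116), and without N2_2 it passed in both arms, at -0.61 and -0.75 with adjusted p of 0.00113 and 0.000334.

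Rab32, a GTPase that carries enzymes to the melanosome, had log2 fold changes of -0.91 ± 0.37 in Nmnat1 knockdown and -1.20 ± 0.37 in Nmnat2 knockdown (adjusted p = 0.427 and 0.156 by limma). Trpm1, a channel gene transcribed in melanocytes and in retinal ON bipolar cells, was at -1.56 ± 0.47 in Nmnat2 knockdown (adjusted p = 0.146). Mlph, which links melanosomes to their motor, was at 1.19 ± 0.57 in Nmnat1 knockdown (adjusted p = 0.501). In Nmnat2 knockdown without N2_2, Cd63, Trpm1 and the cystine exchanger gene Slc7a11 passed as lower. Among overexpression libraries 23 of the 24 were kept, with medians of -0.15 in Nmnat1 overexpression and 0.08 in Nmnat2 overexpression beside -0.04 and 0.06 over all genes. Hps4, which takes part in melanosome biogenesis, was at -0.61 ± 0.18 and -0.46 ± 0.18 there (adjusted p = 0.258 and 0.394), and the motor gene Myo5a at 0.43 ± 0.18 and 0.38 ± 0.18 (adjusted p = 0.487 and 0.533). Both arms share the empty vector libraries.

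Of 11 relatives of Mitf and factors of eye pigment fate, 7 passed the filter in each table. Otx2, a factor of photoreceptors and of the pigment epithelium, was the most abundant at 974 to 2041 ppm over the 18 libraries, and at -0.48 ± 0.18 in Nmnat2 knockdown (adjusted p = 0.211 by limma). Pax6, a factor of eye progenitors and later of inner retinal neurons, was at 49.4, 54.4 and 39.6 ppm in Nmnat1 knockdown libraries, at 280, 120 and 264 ppm in Nmnat2 knockdown libraries, and at 126, 141 and 120 ppm in scramble libraries. It lay below scramble in every Nmnat1 knockdown library (-1.42 ± 0.30, adjusted p = 0.125). In Nmnat2 knockdown Pax6 overlapped scramble through N2_2 (0.69 ± 0.30, adjusted p = 0.280). With that library left out it was above scramble (1.08 ± 0.14, adjusted p = 0.000862). Against the empty vector Pax6 was at 1.25 ± 0.27 in Nmnat1 overexpression and at 1.12 ± 0.27 in Nmnat2 overexpression (adjusted p = 0.115 and 0.114), and without the libraries numbered 1 it passed in both, at 1.39 and 1.36. The Mitf relative Tfeb was at -1.16 ± 0.48 in Nmnat2 knockdown (adjusted p = 0.264), and Tfec at -0.79 ± 0.49 in Nmnat1 overexpression (adjusted p = 0.697).

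The melanocyte lineage list, of which 7 of 10 genes were kept in the knockdown table and 5 in the overexpression table, had medians of -0.39 in Nmnat1 knockdown, -0.28 in Nmnat2 knockdown, 0.48 in Nmnat1 overexpression and 0.71 in Nmnat2 overexpression. Without N2_2 the Nmnat2 knockdown median was -0.17, beside -0.14 over all genes. Without the libraries numbered 1 the overexpression medians were 0.40 and 0.52, beside -0.03 and 0.03. Mc1r, the melanocortin receptor, was at -1.07 ± 0.36 in Nmnat2 knockdown (adjusted p = 0.186 by limma). Kit, a receptor tyrosine kinase gene that retinal cells express as well, was at 0.66 ± 0.29 in Nmnat1 overexpression and 0.73 ± 0.29 in Nmnat2 overexpression (adjusted p = 0.498 and 0.399), and Tfap2a, a factor of neural crest and of amacrine cells, at 1.26 ± 0.57 and 0.78 ± 0.57 (adjusted p = 0.522 and 0.726). With the libraries numbered 1 left out, Kit and Tfap2a passed in both arms, at 0.96 and 1.91 in Nmnat1 overexpression and at 1.17 and 1.35 in Nmnat2 overexpression.

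The retinal pigment epithelium list had medians of 0.08 in Nmnat1 knockdown and -0.75 in Nmnat2 knockdown for 13 kept of 19 genes, and of 0.00 in Nmnat1 overexpression and 0.05 in Nmnat2 overexpression for 12 kept. Without N2_2 the Nmnat2 knockdown median was -0.37, beside -0.14 over all genes. Rlbp1 was at -1.19 ± 0.36 in Nmnat1 knockdown and -1.11 ± 0.36 in Nmnat2 knockdown (adjusted p = 0.286 and 0.172 by limma), and Enpp2, which encodes autotaxin, at -1.25 ± 0.38 and -0.85 ± 0.38 (adjusted p = 0.279 and 0.287). The opsin gene Rgr was at 1.22 ± 0.57 in Nmnat1 knockdown (adjusted p = 0.491). Without N2_2, Rlbp1 passed as lower in both knockdowns, at -1.19 and -0.58. The keratin gene Krt18 was at -0.99 ± 0.44 in Nmnat1 overexpression and -1.08 ± 0.44 in Nmnat2 overexpression (adjusted p = 0.511 and 0.419).

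Without the libraries that stood apart, more of these 64 genes were called, of which 51 passed the filter in the knockdown table and 44 in the overexpression table. The shares of all genes given beside them count either direction, and nothing is read from these counts. Without N2_2, 5 were lower and 0 higher in Nmnat1 knockdown (Cd63, Enpp2, Pax6, Rlbp1 and Sox9), beside 8.43% of all genes called. In Nmnat2 knockdown 5 were higher (Kit, Lhx2, Pax6, Sox9 and Tfap2a) and 6 lower (Cd63, Kcnj13, Otx2, Rlbp1, Slc7a11 and Trpm1), beside 15.5%. Without the libraries numbered 1, 6 were higher (Dtnbp1, Kit, Lhx2, Pax6, Sox9 and Tfap2a) and 2 lower (Hps4 and Otx2) in Nmnat1 overexpression, beside 11.1% of all genes called. In Nmnat2 overexpression 6 were higher (Dtnbp1, Kit, Pax6, Rlbp1, Sox9 and Tfap2a) and 0 lower, beside 8.18%. Pax6, Sox9, Lhx2 and Rlbp1 are also genes of retinal progenitors or Müller glia, whose summed marker level is given above for the knockdown table. In the overexpression table that sum was 589.5 to 889 ppm in Nmnat1 overexpression, 415.5 to 883 ppm in Nmnat2 overexpression and 577 to 754 ppm in empty vector libraries. The lowest library of each group was the one numbered 1, and the part of this sum in these calls was not tested.

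**Figure D5:**
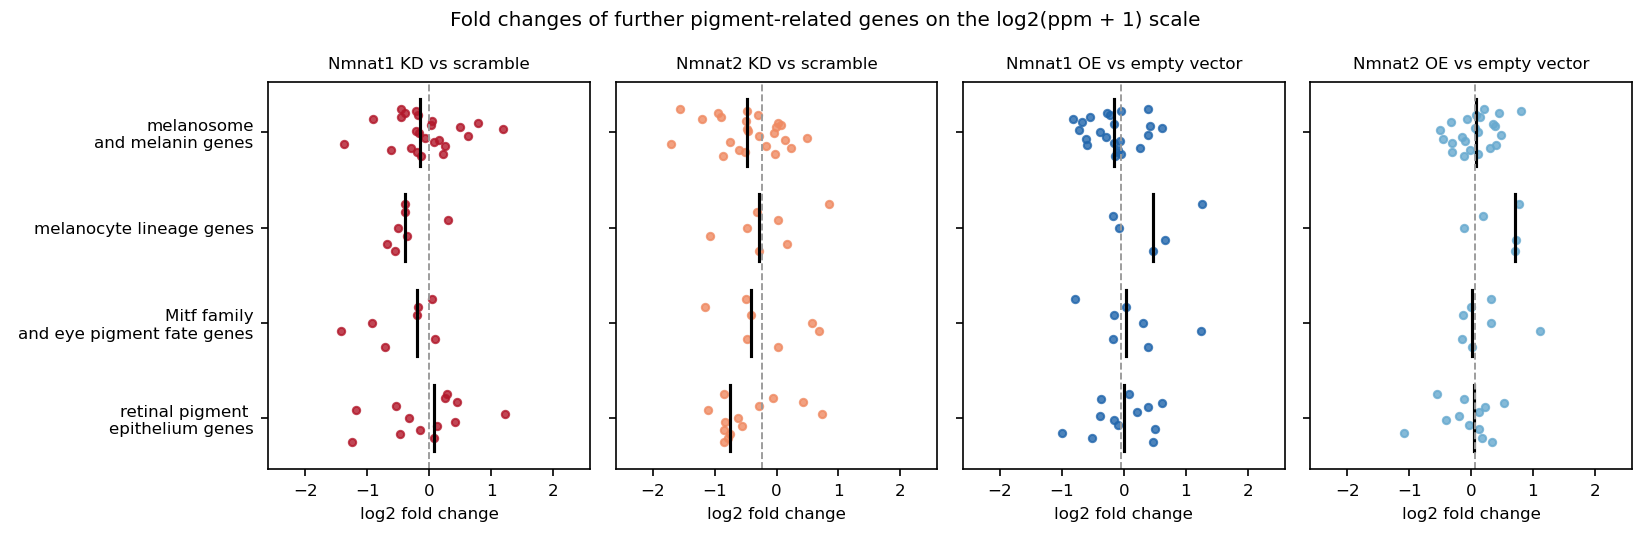
Log2 fold changes on the log2(ppm + 1) scale (x axis) of the genes of 4 further lists (y axis) in the 4 comparisons. Each point is a gene that passed the filter, black bars are list medians, and the dashed line is the median over all genes kept. In Nmnat2 knockdown the medians of -0.47, -0.28, -0.42 and -0.75 all lie below 0, as does that of all genes at -0.23. Without N2_2, a setting not drawn, they were -0.32, -0.17, -0.16 and -0.37, beside -0.14 over all genes.

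All other genes kept were ranked by their likeness to the average of the pigment genes across the 9 libraries of a table. The measure was Pearson's r on log2(ppm + 1) with the mean of those of the 8 that passed the filter, given as a description, since the libraries of a table share their groups. In the knockdown table the 8 closest were Slco4a1 (r = 0.983), Pnck (0.982), Mfsd12 (0.981), Aldh3a2 (0.978), Gpi1 (0.978), Rtn4rl2 (0.978), Smok2b (0.976) and Mvk (0.975). In the overexpression table they were Mlip (r = 0.979), Irf2 (0.957), Unc13d (0.954), Ugt3a1 (0.954), Trbv5 (0.954), Efr3a (0.954), Sugct (0.954) and Tac1 (0.953). These are the top of a ranking of all genes kept, and over 9 libraries some genes reach a high r through that selection alone. The average also joins genes that differed in direction, such as Tyrp1 at 1.55 and Mitf at -0.61 in Nmnat1 knockdown. The lists of the tables had 0 genes in common, and nothing is read from this.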

How the data were processed

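RNA was measured in 18 libraries of sorted EGFP-positive cells, 9 in each of 2 tables. The authors deposited a length-scaled expression signal per gene, named TPM in their files, whose columns summed to 14.4 to 29.6 times 1000000 (knockdown) and 17.3 to 26.2 times 1000000 (overexpression), so that it was not read as TPM. Per the submitters' processing notes, Salmon 0.11.3, sleuth 0.30.0 and GRCm38.p6 were used. The scaling of the signal is not given in the sources used here. Where a gene had 1 annotated transcript, between 75.3% and 86.3% of low values lay within 0.1 of a whole number of reads (20% by chance), which gave the reads behind 1 ppm. Relative depth was 0.793 to 1.35 for knockdown and 0.821 to 1.14 for overexpression libraries. Intervals were not derived, and read numbers cover counting error only.

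The incomplete last line of each table was left out. Values were divided by their column sum and multiplied by 1000000 (ppm). A gene was kept if 3 or more of 9 libraries reached 1 ppm (22233 and 20725 genes). limma 3.58.1 in R 4.3.3 was fitted to log2(ppm + 1), with a mean-variance trend and the 3 groups of a table in 1 fit. Two-sided p-values were adjusted over all genes kept in a comparison (Benjamini-Hochberg), with a threshold of 0.05. The fit was tested on simulated data. No test crosses the tables, and a knockdown column gives the group of its library only. The 8 genes, the 4 gene lists and 9 marker lists were chosen with earlier results of these data known. Of the list genes, 3 are not reported here, and no sum, median or count of a list includes them. Named beside the 8 genes were up to 4 genes of each list by smallest unadjusted p in a comparison, list genes past the threshold, and the 8 genes of each table most like the mean of the kept pigment genes. Gene coordinates are those of GENCODE M21, and promoter windows those of RefSeq. The deposited identifier of Mlana carries another version number than the annotation. Python 3.11.15 and matplotlib 3.10.9 served for the figures. Alternatives covered the pseudocount, filter, scaling, trend, library weights, groups fitted, libraries left out and, in the overexpression table, the replicate number.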

Additional observations from a re-analysis of the deposited data

How the results depend on the processing

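By limma 0 pigment genes were called in each of the 4 comparisons. With weighted libraries 1 was called in Nmnat1 knockdown (Tyrp1) and 1 in Nmnat2 knockdown (Dct), and with only the groups compared 1 in Nmnat1 knockdown (Tyrp1). Leaving out each library in turn gave 0 to 1 in each knockdown, the 1 being without N2_2, and 0 in both overexpression comparisons. Of the pathway list genes 0 were called. With weighted libraries 5 were in Nmnat1 knockdown, 15 in Nmnat2 knockdown, 6 in Nmnat1 overexpression and 5 in Nmnat2 overexpression, and with only the groups compared 5 in Nmnat1 knockdown. Without the libraries numbered 1 there were 8 in Nmnat1 overexpression and 6 in Nmnat2 overexpression. Leaving out each library in turn gave 0 to 5, 0 to 11, 0 to 1 and 0 to 2 in the same order of comparisons.

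Of 397 alternative log2 fold changes of the 8 genes, 377 kept their direction and their side of the threshold, 5 passed it and 15 turned. For Mitf in Nmnat1 overexpression, values were -0.01 with weighted libraries, -0.06 with a pseudocount of 20 on the values as deposited, -0.01 without the libraries numbered 1, and -0.06 to 0.10 leaving out each library. For Tyr in Nmnat2 overexpression, they were -0.10, -0.02, -0.16 and -0.22 to 0.47 under the same settings. Pmel in Nmnat2 overexpression was at -0.04 on the values as deposited and -0.06 to 0.32 leaving out each library, and Rpe65 at -0.48 to 0.11. Tyr ranged from -0.20 to 0.35 in Nmnat1 knockdown and from -0.53 to 0.02 in Nmnat2 knockdown, where leaving out C1 and C3 turned it. The cause of these shifts was not tested.

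With the replicate number as a block, 1 pathway list gene was called in each overexpression comparison (Pax6) and 0 pigment genes, and all genes called came to 187 and 269, beside 25 and 114 without it. With the block Dct was at -0.38 ± 0.12 in both (adjusted p = 0.216 and 0.199), below the same-numbered empty vector library in 6 of 6 pairs. Deviations of same-numbered libraries correlated at 0.03 to 0.46, over 0.1 in 7 of 9 pairs. A library was closest to its own number in another group in 12 of 18 cases, where 1 of 3 would be so by chance. Since 2 pairs with the empty vector lay under 0.1 and the labels name no shared source, the numbers were not taken as pairs. For the knockdown table no paired analysis was possible because its columns, though numbered, match the label of no single sample. The few reads behind levels under 1 ppm, 3 libraries a group and the wide spread that N2_2 gives its table limit detection.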
